A study of Nothobranchius furzeri and Aphyosemion australe and Iconisemion striatum with 145 samples.

Results

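The proteasome and ubiquitin conjugation genes of the African turquoise killifish (Nothobranchius furzeri) are described here in embryos at the pre-diapause stage. Members were taken by gene name, as proteasome subunits and their assembly factors, activators and inhibitor, ubiquitin, the E1 and E2 enzymes, cullin-RING ligase parts and the VCP cofactors ufd1l and nploc4. The name rule used no measured value, although it was chosen with earlier results of these data known, and gave 84 of the 25122 genes in the count table. One of them, psmc3ip, matched by name only, because its product acts in homologous recombination and is not a proteasome subunit.

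The study asked how diapause, a suspended state of the embryo, evolved in killifish, and sampled several species just before embryos enter or skip it. RNA was sequenced from 4 African turquoise libraries, each made from 8 to 10 pooled embryo bodies with 15 to 22 somites and a Kupffer's vesicle, the transient organ used for staging. These embryos came from first clutches of young parents, most of which were expected to skip diapause, and these libraries include no treated, mutant or later embryos. The yolk, the chorion and the outer enveloping layer were dissected away, so the libraries represent whole bodies of mixed tissue, in which fewer cells of a type and less RNA per cell cannot be told apart. Libraries of lyretail and red-striped killifish were counted on gene predictions without names and are not analysed here.

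The proteasome degrades proteins that carry ubiquitin. Its 20S core is a barrel of alpha and beta rings that encloses the proteolytic sites, and its 19S particle has a base, with a ring of ATPases that unfold and feed in the substrate, and a lid that removes ubiquitin. Ubiquitin is activated by an E1 enzyme, passed to an E2 conjugating enzyme and attached to the target with the help of an E3 ligase, of which the cullin-RING ligases are the largest family. Embryos of this age divide and pattern quickly, and timed removal of cyclins and signalling proteins depends on this system.

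Library totals were 25985703, 41191533, 33932167 and 29822933 counts in libraries 1 to 4. Counts were expressed as CPM, each gene's reads scaled to the same total in every library. Every pair of libraries differed by more than counting error, with a mean chi-square per degree of freedom between 82.9 and 440. None was therefore the same library sequenced again, but this does not show that the pools were distinct. The labels do not say whether the pools came from separate parents, and the spread between libraries may therefore be partly technical. Library 2 was the deepest and had the largest share of counts in its 10 most abundant genes, at 7.15%, against 6.20% to 6.32% in the other libraries. On the library totals, the median gene sat at 0.08, 0.01, -0.11 and 0.06 log2 units from its own mean in libraries 1 to 4, and scaling by TMM or by DESeq2 size factors brought all these medians to 0.02 or less. CPM is not corrected for gene length, so a higher CPM in one gene than in another does not show more transcripts. The comparisons below are of each gene with itself across libraries, in which length cancels.

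Nearly all members were detected. At least 1 CPM in every library was reached by 81 of the 84 members, against 53.7% of all genes in the table. The members together took 2.92%, 3.21%, 2.24% and 2.53% of all counts in libraries 1 to 4, with a mean of 2.72% ± 0.428 (SD, n = 4). The 95% Wilson intervals of these shares, which cover counting error only, ran from 2.916% to 2.929% in library 1 and from 2.231% to 2.241% in library 3, so the libraries differed by far more than counting error. All 81 varied over the libraries beyond counting error at a Benjamini-Hochberg adjusted chi-square p under 0.05, and so did 93.5% of all genes of at least 1 CPM, so this count does not set the members apart. The median coefficient of variation of CPM was 25.7% in the members and 25.1% in all genes of that level.

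The groups of members differed in how they varied over the libraries. The 29 members that are subunits of the 26S proteasome (20S core plus 19S particle) had their highest CPM in library 2 in 24 cases, against 34.7% of all genes. Here and below, all genes are the 13479 genes of at least 1 CPM in every library. Their lowest was in library 3 in 28 cases, against 38.7%. The rows that RefSeq names psmb6, psma6l and psmd11b fell outside the name rule, are not in this set and are described below. The summed CPM of the 29 members was 14286, 19145, 10425 and 13338 in libraries 1 to 4. The exceptions at the top were psma2, psmb3, psmd8 and psmd13, highest in library 1, and psmd1, highest in library 4, where 18.2% of all genes had their highest value. With TMM scaling 26 of the 29 were highest in library 2 and 20 were lowest in library 3, against 36.2% and 24.97% of all genes. Over all 81 members, 41 were highest in library 2, and 49 were lowest in library 3, or 32 with TMM. These directions were noted after the values were seen, and with no second condition no test between groups of libraries was made.

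**Figure D1:**
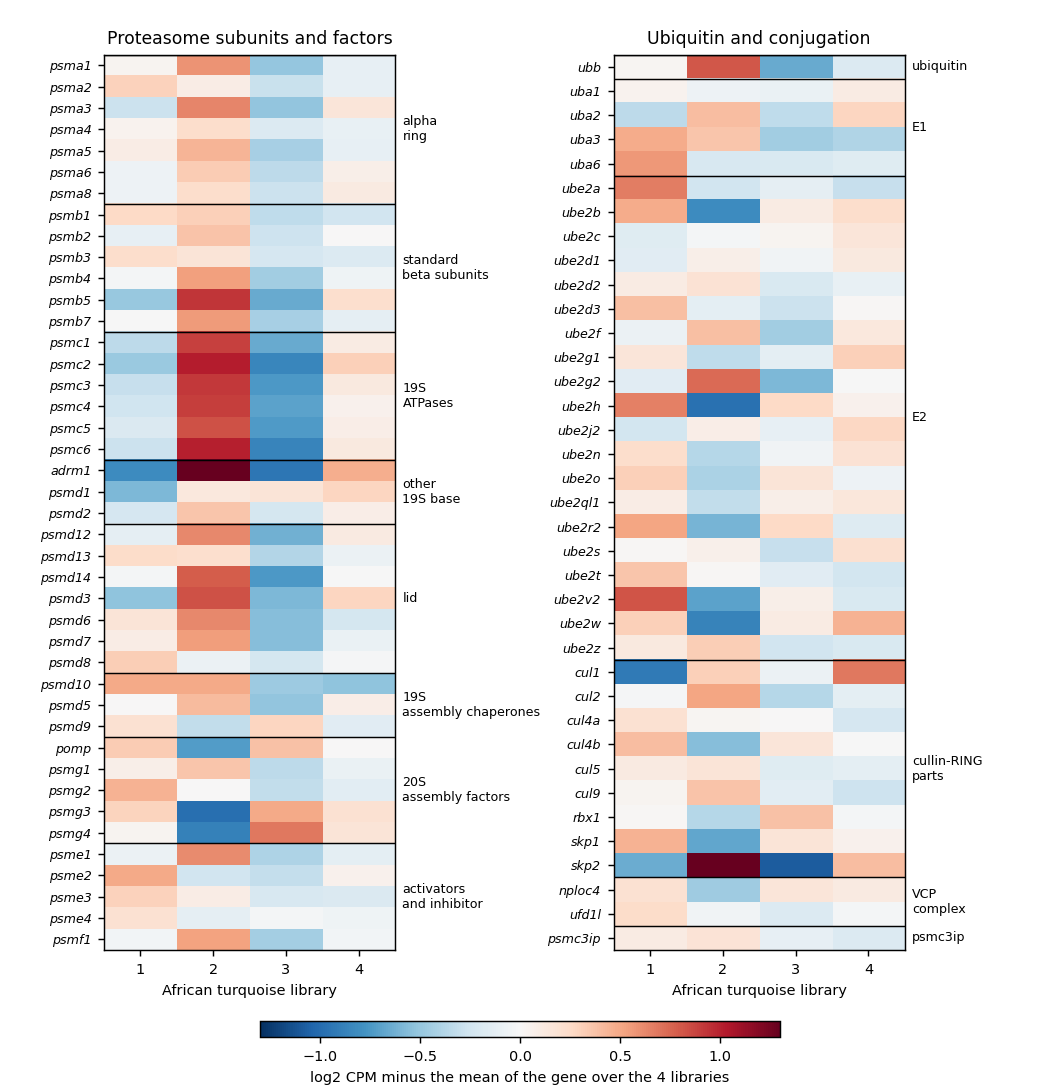
Heat map of log2 CPM minus the gene's own mean for members of at least 1 CPM, less 2 not reported by name, with genes in rows by role and libraries 1 to 4 in columns. The 19S ATPases are highest in library 2 and lowest in library 3 in 6 of 6 cases.

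The ATPases of the 19S base moved most closely together. The gene psmc6 had 297, 726, 199 and 394 CPM in libraries 1 to 4. For psmc2 the values were 113, 321, 88.0 and 196 CPM, and for psmc5 they were 223, 450, 152 and 268 CPM. In each of these the order of libraries was 2, 4, 1 and 3. The remaining ATPases kept that order: psmc1 had 125, 292, 100.2 and 169 CPM and psmc3 had 151, 351, 111 and 202 CPM. Last, psmc4 had 188, 418, 139 and 233 CPM. All 6 of 6 ATPases followed this order of libraries, against 16.3% of all genes, as did 16 of the 29 26S subunits and 21 of the 81 members. Their highest library was between 2.92 and 3.65 times the lowest. The median difference between the highest and the lowest library was 1.63 log2 units in the ATPases, against 0.82 in all genes and 0.85 in all members. A difference of at least 2-fold was seen in 6 of 6 ATPases and in 30 of 81 members, against 35.8% of all genes. Because library 2 was the highest in 6 of 6 ATPases, leaving it out must lower this difference. Without library 2 the median ATPase difference was 0.84 log2 units, against 0.54 in all genes. Given their shared order, in the remaining 3 libraries the ATPases were highest in library 4 and lowest in library 3 in 6 of 6 cases. The shares of all genes were 40.2% and 48.1%. This restates the order above and is not a separate result.

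**Figure D2:**
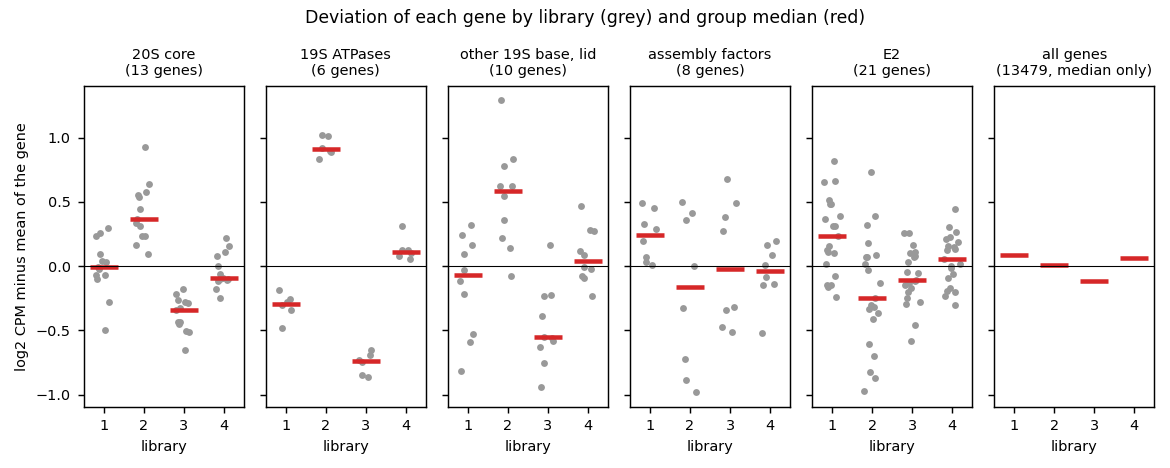
Log2 CPM minus the gene's own mean (vertical axis, log2 units) by library for the main groups, with a grey point per gene and a red bar at the group median; the last panel gives the median of all genes. The ATPase medians run from 0.91 in library 2 to -0.74 in library 3, and the median of the 21 E2 genes is lowest in library 2, at -0.25, though with the E2 rows named by RefSeq added it is lowest in library 3, at -0.14.

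Among the other subunits of the 19S base, adrm1, a receptor that binds ubiquitin chains, had 39.2, 169, 36.1 and 95.7 CPM, a 4.70-fold span in the same library order as the ATPases. The scaffold subunits psmd1 and psmd2 varied less. They had 18.1, 30.0, 30.6 and 33.1 CPM for psmd1, which was lowest in library 1, and 64.6, 96.5, 64.0 and 79.97 CPM for psmd2. In the lid, psmd14, the metalloprotease that cuts ubiquitin from the substrate, had 325, 569, 197 and 330 CPM. The structural lid subunit psmd3 had 88.5, 227, 85.1 and 154 CPM. Both were highest in library 2 and lowest in library 3. The lid genes psmd6, psmd7 and psmd12 had the same extremes, at 749, 1255 and 242 CPM in library 2 and 330, 586 and 102 CPM in library 3. By contrast psmd8 had 882, 669, 605 and 696 CPM and psmd13 had 683, 671, 442 and 549 CPM, both highest in library 1. The row named psmd11b in RefSeq, outside the name rule, had 91.0, 124, 75.6 and 119 CPM.

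The 20S core varied less than the 19S particle. Its median difference between the highest and the lowest library was 0.68 log2 units in 13 genes, against 1.14 in the other 19S base and lid genes. With the rows named by RefSeq added, the gap was smaller, at 0.88 in the core and 1.10 in the other 19S base and lid genes. The summed CPM of the 13 core genes was 9484, 11908, 7158 and 8543. All 13 were lowest in library 3 on library totals, against 38.7% of all genes, and 8 of 13 were so with TMM, against 24.97%. In library 2, 11 of 13 were highest, or 12 with TMM, against 34.7% and 36.2% of all genes. In the alpha ring, psma4 had 1010, 1152, 866 and 919 CPM and psma1 had 959, 1401, 661 and 871 CPM. The alpha subunits psma5 and psma8 had 152, 194, 106 and 133 CPM and 189, 233, 163 and 214 CPM. Of the alpha genes listed by name psma3 spanned most, at 441, 830, 374 and 594 CPM, and psma2, at 423, 368, 282 and 321 CPM, was the gene highest in library 1. The remaining alpha gene, psma6, was also highest in library 2, at 463 CPM, and lowest in library 3, at 289 CPM. A row that RefSeq names psma6l, LOC107395010, had 7.70, 29.0, 6.37 and 16.5 CPM, a 4.55-fold span.

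The beta ring carries the proteolytic sites. The gene psmb5, whose product has the chymotrypsin-like activity, had 88.0, 236, 78.7 and 145 CPM, a 3.00-fold span in the order of the ATPases. The gene psmb7, for the trypsin-like activity, had 793, 1164, 589 and 733 CPM. The third catalytic gene, psmb6, for the caspase-like activity, is listed only under the number LOC107372744, which RefSeq names psmb6, and so fell outside the name rule. It had 193, 1082, 210 and 857 CPM, so libraries 2 and 4 were both at least 4 times above libraries 1 and 3. The 3 catalytic genes therefore shared library 2 as the highest, while psmb6 alone of them was lowest in library 1. Of the structural beta genes, psmb1 had 1800, 1863, 1199 and 1267 CPM and psmb3 had 1452, 1389, 1062 and 1091 CPM. The values were 879, 1218, 784 and 944 CPM for psmb2, and psmb4 had 948, 1397, 705 and 924 CPM.

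**Figure D3:**
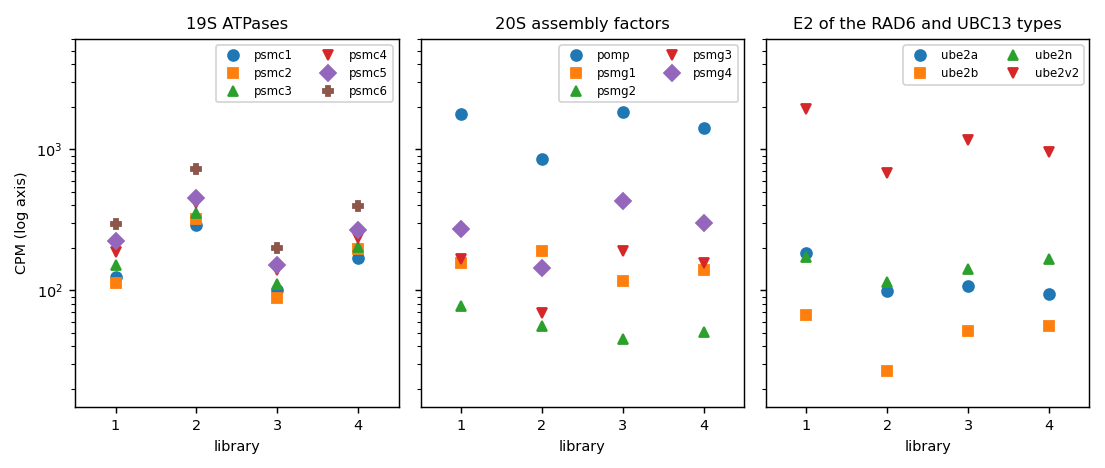
CPM in libraries 1 to 4 of named members, on a log axis, in panels by role, with a point per library. The ATPase genes peak in library 2, while pomp, at 857 CPM there, has its lowest value.

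Alternative beta subunits, some of which replace the standard ones in the immunoproteasome of immune cells, drew few reads. The row psmb8 had 0.192, 0.753, 0 and 0.369 CPM, and its count of 0 in library 3 allows a level of up to 0.0884 CPM, the value of 3 counts. Of the rows named by RefSeq, psmb9a had 4.93, 8.69, 3.21 and 5.33 CPM, whereas psmb12, psmb13a and psmb11a had at most 0.177, 0.0971 and 0.0770 CPM in any library. In the NfurGRZ-RIMD1 assembly psmb9a, psmb12, psmb13a and psmb8a follow each other in the order of genes. The row psmb8 could not be matched to psmb8a. The genes psmb10, psmd4 and ubc are not analysed here.

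Genes that assemble the proteasome were mixed. Of the 8, 3 were highest in library 2, near the 34.7% of all genes, and 4 were lowest there, against 36.6%. On library totals 4 were highest in library 3, against 14% of all genes. With TMM scaling 4 were again highest in library 3, against 3804 of 13479 genes. The maturation factor pomp had 1780, 857, 1843 and 1423 CPM, and the core chaperone genes psmg3 and psmg4 had 166, 68.9, 191 and 155 CPM and 273, 145, 428 and 299 CPM. These were lowest in library 2 and highest in library 3, the opposite extremes to the ATPases. The partner chaperones psmg1 and psmg2, which act as a pair in yeast and mammals, had 155, 189, 116 and 139 CPM and 77.0, 56.3, 45.1 and 50.9 CPM. Library 2 was the highest and library 3 the lowest for psmg1, as in most subunits, and psmg2 was lowest in library 3 too. Of the chaperones of the 19S base, psmd9 followed pomp, at 454, 317, 481 and 359 CPM, while psmd5 followed the subunits, at 71.3, 94.6, 49.7 and 75.1 CPM. The third, psmd10, had 244, 244, 125 and 120.4 CPM.

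Of the activators that open the core barrel, psme4 was among the steadiest members, at 24.3, 19.4, 20.7 and 20.3 CPM. The gene psme3, whose product acts in the nucleus, had 707, 612, 496 and 502 CPM and psme2 had 92.1, 55.2, 52.8 and 68.1 CPM. Its interferon-inducible partner in mammals, psme1, had 4.58, 7.45, 3.65 and 4.43 CPM. The inhibitor gene psmf1 had 76.2, 112, 57.5 and 76.1 CPM, with the extremes of the 26S subunits.

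The polyubiquitin gene, which encodes ubiquitin as a chain of repeats, had the same extremes as most subunits. The row ubb had 2700, 4670, 1694 and 2349 CPM. A second row that RefSeq names ubb, LOC107387081, had 4321, 6919, 2655 and 3602 CPM. Reads that fit several loci were removed before counting, and the ubiquitin repeats are near-identical, so the split between these rows is uncertain. Of the E1 genes, uba1, the main ubiquitin-activating enzyme, had 98.2, 91.4, 89.9 and 103 CPM. At a coefficient of variation of 6.42% this was the smallest spread of any of the 81 members. The second ubiquitin E1, uba6, had 24.8, 14.5, 14.6 and 15.0 CPM. The E1 subunit genes for SUMO and NEDD8 had 70.4, 118, 70.9 and 108 CPM (uba2) and 56.3, 51.8, 29.3 and 30.6 CPM (uba3).

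The E2 conjugating enzymes were not often highest in library 2. Of 21 E2 genes of at least 1 CPM, 4 were highest in library 2 and 10 were lowest there, against 34.7% and 36.6% of all genes. With the E2 rows named by RefSeq these were 9 and 13 of 32, near the shares of all genes. The summed CPM of all 23 E2 genes was 5567, 3583, 3939 and 4084, and 10 were highest in library 1, against 33.1% of all genes. The median difference between the highest and the lowest library was 0.67 log2 units. The gene ube2v2, which with ube2n makes chains that signal rather than target for degradation, had 1938, 675, 1161 and 955 CPM, and ube2n had 172, 114, 142 and 167 CPM. For ube2a and ube2b, which modify histone H2B, the values were 185, 98.1, 107 and 94.7 CPM and 66.7, 27.0, 51.2 and 55.8 CPM. Library 2 was the lowest or next to lowest in each of these. Of the rows named by RefSeq only, ube2nb had 742, 458, 561 and 529 CPM, also lowest in library 2. The row ube2v1 had 76.7, 132, 87.8 and 218 CPM and was lowest in library 1.

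Other E2 genes went different ways. The gene ube2c, which works with the anaphase-promoting complex in mitosis, had 544, 596, 621 and 678 CPM, and ube2d1 had 55.2, 64.4, 59.2 and 66.7 CPM. Their coefficients of variation were 9.17% and 8.398%. The chain-extending partner of ube2c, ube2s, had 151, 156, 121 and 172 CPM. In contrast ube2g2, which serves degradation of proteins from the endoplasmic reticulum, had 81.6, 151, 60.4 and 90.5 CPM, in the order of the ATPases. The NEDD8 conjugating enzyme ube2f had this order too, at 102, 142, 78.6 and 119 CPM. Of the 21 E2 genes only these 2 had it, against 16.3% of all genes. With the E2 rows named by RefSeq added, 6 of 32 had it, ube2e1 among them. The E2 genes ube2d2, ube2d3, ube2g1, ube2h, ube2j2, ube2o, ube2t, ube2w and ube2z spanned between 1.301-fold (ube2d2) and 3.08-fold (ube2h) over the libraries. Of these, ube2g1, ube2h, ube2o and ube2w were lowest in library 2, where most subunits were highest. The E2 genes with the fewest reads above 1 CPM were ube2r2, at 12.8, 5.90, 10.8 and 7.98 CPM, and ube2ql1, at 8.89, 6.65, 8.75 and 9.19 CPM. The other NEDD8 enzyme, ube2m, had 0.385, 0.340, 0.589 and 0.469 CPM, and ube2j1 had 0.231, 0.340, 0 and 0.134 CPM, where the count of 0 allows up to 0.0884 CPM. Those 2 genes and psmb8 are the 3 members under 1 CPM. Among the rows named by RefSeq only, ube2e1 had 45.0, 120, 25.1 and 68.8 CPM and ube2e2 had 1.62, 21.4, 3.12 and 18.9 CPM, a 13.2-fold span.

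**Figure D4:**
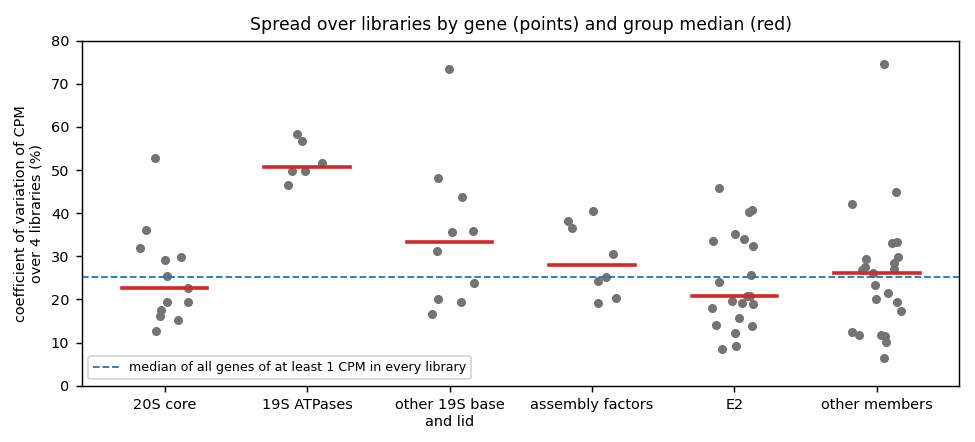
Coefficient of variation of CPM over the 4 libraries in percent, with a point per member of at least 1 CPM, a red bar at the group median and a dashed line at the median of all genes, 25.1%. The ATPases have a median of 50.8% and the E2 genes one of 20.8%.

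Cullin-RING parts went in different directions. The substrate receptor skp2, which targets a cell cycle inhibitor in mammals, had 46.6, 182, 34.4 and 96.5 CPM, in the order of the ATPases and with the largest coefficient of variation of the 81 members, 74.7%. Its adaptor skp1 had 1184, 540, 973 and 899 CPM and the RING subunit rbx1 had 614, 473, 795 and 597 CPM, both lowest in library 2. The scaffold genes cul1 and cul5 had 8.16, 19.3, 14.7 and 24.9 CPM and 7.70, 7.99, 6.34 and 6.47 CPM, whereas cul2 and cul9 spanned 1.84-fold and 1.56-fold. The paired scaffold genes cul4a and cul4b had 44.8, 39.8, 39.3 and 33.7 CPM and 42.6, 21.9, 35.9 and 32.1 CPM. The VCP cofactors ufd1l and nploc4 had 178, 146, 133 and 148 CPM and 24.1, 15.3, 23.5 and 22.8 CPM, while the row that RefSeq names vcp, the ATPase they serve, had 31.3, 49.6, 38.2 and 50.7 CPM. The recombination gene psmc3ip, matched by name only, had 102, 107, 87.6 and 83.4 CPM.

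The spread was also estimated net of counting error with edgeR, as a coefficient of variation between pools. Its median was 0.29 in the members and 0.30 in all genes, with 0.37 in the ATPases and 0.28 in the E2 genes. These edgeR values are pulled toward the trend for genes of like abundance, which narrows contrasts between groups. DESeq2 gene-wise dispersion, without that pull, gave 0.234 in the members, 0.501 in the ATPases and 0.167 in the E2 genes. Without library 2 the edgeR median of the ATPases was 0.230, against 0.227 in all members, both subject to that pull toward the trend. The median log2 difference between the highest and the lowest library stayed larger in the ATPases without library 2. It was 0.84 in the ATPases and 0.54 in all members. Below the trend for genes of like abundance lay 55 of the 81 members, against 69.5% of all genes. None of the ATPases, 0 of 6, lay below it, against 11 of the 13 core genes.

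Other genes of the pathway were counted by lists, against 34.7% of all genes highest and 36.6% lowest in library 2. Of 9 genes for deubiquitinases and shuttle factors that bind the proteasome, 6 were highest in library 2, among them uchl5, which docks on adrm1, at 116, 206, 88.5 and 134 CPM. In the same list bag6 had 34.9, 20.8, 39.3 and 37.4 CPM. Of 9 VCP cofactor genes 6 were highest in library 2, such as faf2, at 35.0, 57.1, 25.6 and 46.3 CPM. The list of factors that drive proteasome genes, 8 rows of at least 1 CPM, had 0 highest in library 2 and 6 lowest there. In it nfe2l1, the main activator of subunit genes in mammals, had 12.0, 6.02, 9.17 and 9.86 CPM, and ddi2, the protease that processes its product, had 13.2, 6.17, 15.6 and 13.2 CPM. Of 28 genes for NEDD8, SUMO and UFM1 conjugation 14 were highest in library 2. They included the signalosome gene cops6, whose complex resembles the proteasome lid, at 278, 415, 151 and 230 CPM, whereas nedd8 itself had 139, 41.6, 98.3 and 92.0 CPM.

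Marker genes of several tissues moved with the libraries too. Summed somite markers (6 rows of 9 names) had 237, 323, 215 and 326 CPM, neural tube markers (4 rows of 7 names) 240, 343, 216 and 318 CPM, and notochord and floor plate markers (2 rows of 6 names) 45.9, 103, 44.8 and 83.5 CPM. Like the ATPases these sums were higher in libraries 2 and 4 than in libraries 1 and 3. Row by row this held in 4 of 6, 2 of 4 and 2 of 2, against 28.8% of all genes. Of the somite rows, pax3a, at 26.8, 18.7, 26.1 and 26.4 CPM, was lowest in library 2. Another, msgn1, had 72.3, 68.8, 60.6 and 80.6 CPM. The neural sum was carried by sox3 and neurog1, while sox2, at 18.9, 9.44, 23.8 and 26.2 CPM, and elavl3, at 57.8, 34.5, 58.1 and 51.0 CPM, were lowest in library 2. Markers of the enveloping layer and skin, the first of which was dissected away, had 253, 153, 322 and 249 CPM. Here 4 of 4 rows were lowest in library 2 and highest in library 3, against 36.6% and 14% of all genes on library totals. With TMM 3804 of 13479 genes were highest in library 3. The share of all genes with both extremes was not computed. Of the 8 assembly genes, the 4 genes pomp, psmg3, psmg4 and psmd9 had these extremes too. Yolk markers summed to 227, 223, 207 and 159 CPM, with a vitellogenin row at 0 to 0.0671 CPM. Their rows went different ways, as apoa2 had 58.6, 7.57, 51.9 and 9.59 CPM and apoeb had 91.3, 148, 95.9 and 99.7 CPM. Blood and endothelial markers summed to 301, 320, 297 and 308 CPM, most of it from hbbe2, at 249, 281, 244 and 243 CPM. Other rows of this list went different ways, as fli1 had 23.1, 5.34, 17.9 and 15.5 CPM and tal1 had 4.77, 15.4, 4.57 and 18.1 CPM. Kupffer's vesicle and cilia markers (4 rows, of which 2 reached 1 CPM in every library) summed to 5.85, 16.5, 6.01 and 13.1 CPM. That sum was carried by sox17, at 2.77, 13.7, 3.36 and 8.58 CPM. By contrast foxj1b, at 1.85, 0.388, 1.47 and 1.27 CPM, was lowest in library 2. The part of tissue makeup and of depth in the spread of the members was not tested.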

How the data were processed

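RNA-seq libraries were made from pooled African turquoise killifish embryo bodies with a low-input SMART-Seq kit and Nextera XT. The authors deposited raw counts per gene. Their methods and processing notes name Trim Galore 0.4.5, STAR 2.7.1a, SAMtools 1.5 and featureCounts from Subread 2.0.1, and state that reads aligning to several loci were removed, which lowers the counts of near-identical copies. DESeq2 1.30.1 is also named there, but the deposited counts are not normalized. Every per-sample column of the table used was matched to its sample by name.

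Here CPM on library totals was computed in Python 3.11.15 (scipy 1.17.1, numpy 2.4.6, pandas 2.3.3) and plotted with matplotlib 3.10.9. Deviations are of log2(CPM) with 1 count added. Spread was fitted across the whole table with edgeR 4.0.16 in R 4.3.3 (TMM, filterByExpr, tagwise dispersion, intercept only), and heterogeneity with a chi-square test over 17731 genes of at least 10 counts per library on average. Both were tested on simulated data. DESeq2 1.42.0 gave alternative size factors and dispersions.

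Members and lists were chosen with earlier results of these data known. Named genes are the extremes of each role by CPM and by spread, set catalytic and ubiquitin genes, and members under 1 CPM. Values of 2 members are not reported here one by one, though they count in the totals. Other genes were named after their values were seen. The numbered rows with a RefSeq symbol meeting the rule, 22 in all, are described apart. Coding lengths and promoters were not used here, so length-scaled levels, ratios within gene pairs and promoter motifs, which the plan named, were not computed.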

Additional observations from a re-analysis of the deposited data

Results flagged for a closer look

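Values of 87 items were screened for a single library standing apart from the other 3 by Dixon's test. Of these, 3 were found, no more than the about 1 in 20 that chance gives. The ubiquitin-activating enzyme gene uba6 had 24.8 CPM in library 1, against 14.5 to 15.0 CPM in the others. The E2 gene ube2a had 185 CPM in library 1, against 94.7 to 107 CPM in the others. The VCP cofactor gene nploc4 had 15.3 CPM in library 2, against 22.8 to 24.1 CPM in the others.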

How the results depend on the processing

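No paired analysis was possible because the values come from 1 group of libraries and no test between groups. Every alternative on which libraries were highest, on the log2 differences between libraries and on counting error was chosen after seeing the data. Adding the numbered rows with a RefSeq symbol raised the share of counts to 3.39% in all members and 0.580% in the E2 genes, and the median log2 difference between the highest and the lowest library to 0.88 in the 20S core and 0.75 in the E2 genes, which was 0.60 with DESeq2 size factors. Leaving out each library in turn gave log2 differences of 0.54 to 0.80 in all members, 0.45 to 0.68 in the 20S core, 0.84 to 1.63 in the ATPases, 0.73 to 1.14 in other 19S genes, 0.51 to 0.97 in assembly factors and 0.51 to 0.67 in E2 genes, each lowest without library 2. The edgeR coefficient of variation ranged from 0.227 to 0.343 in all members, 0.230 to 0.411 in the ATPases and 0.215 to 0.337 in E2 genes when each library was left out, each lowest without library 2. With DESeq2 gene-wise dispersion it was 0.234, 0.501 and 0.167 in these groups, and the coefficient of variation of CPM was 0.508 in the ATPases and 0.208 in the E2 genes. The cause of these shifts was not tested. The count of 81 expressed members stayed between 80 and 82 of the 84 members, and was 100 of 106 rows with the RefSeq-named rows added. On library totals 41 of the 81 were highest in library 2, against 34.7% of all genes. The alternatives gave 40 (without psmc3ip) to 49 (without library 1), and 51 of 100 with the RefSeq-named rows. Depth limits detection only in the members under 1 CPM, at floors of 0.0728 to 0.115 CPM for 3 counts. Its part in the spread of the members was not tested. With 4 pools of 1 stage, no difference between conditions can be given.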

Other observations

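Among E3 ligases, the enzymes that choose the target, 39 rows of at least 1 CPM had 14 highest and 16 lowest in library 2, near the 34.7% and 36.6% of all genes. The gene siah1 had 17.2, 50.4, 13.1 and 26.3 CPM in libraries 1 to 4, whereas smurf1, which limits BMP signalling, had 10.8, 3.74, 11.4 and 10.1 CPM. For the anaphase-promoting complex, the activator cdc20 had 76.2, 116, 64.3 and 87.9 CPM and the other activator, fzr1, had 22.1, 10.997, 26.2 and 29.2 CPM. Library 2 was thus the highest for cdc20 and the lowest for fzr1, while the row that RefSeq names fzr1b, at 1.04, 6.36, 2.68 and 4.76 CPM, was highest there.

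Of 21 other deubiquitinase genes, 5 were highest in library 2, against 34.7% of all genes. The gene brcc3, for a protease that cuts signalling chains, had 15.5, 70.8, 13.6 and 37.9 CPM, in the library order of the ATPases, and otub1 had 656, 776, 467 and 557 CPM. These genes were picked after their values were seen.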
